A study of Mus musculus with 4 samples.

Results

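The cells described here are cycling callus chondrocytes, which are barcodes of the fracture callus that held cartilage transcripts together with transcripts of dividing cells. They were chosen on measured values in both callus libraries. A barcode was a member when it had at least 500 unique molecular identifiers (UMIs, tags that count RNA molecules once whatever their amplification), at least 200 genes and at most 10% mitochondrial UMIs, when Col2a1 and Acan together made up at least 1% of its UMIs and Col10a1 less than 0.5%, and when Mki67, Top2a and Cenpf together had at least 3 UMIs. There were 105 members, 88 in control callus and 17 in GC callus, of the 14451 callus barcodes that passed the first 3 filters and of 23216 in the whole series. Neither trabecular bone library held a member.

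The series is a study of glucocorticoids (GCs) in bone and fracture healing by single-cell RNA-seq of 4 libraries, 1 each of callus and trabecular bone under placebo (control) and under prednisolone (GC). All came from male C57BL/6J mice aged 20 weeks, and tissue was taken at week 2, with prednisolone at 6.25 mg/kg/d in the GC mice and a placebo in the control mice. The labels describe a pellet under the skin for every library, whereas the methods of the study describe daily injection in the fracture model, and the number of mice behind a library is not given in the sources used here. Both callus samples had been flushed of marrow, crushed, digested with Collagenase II, Dispase II and DNase I and strained at 70 μm.

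A callus heals a broken bone partly through a cartilage template. Chondrocytes that express Sox9 and secrete type II collagen and aggrecan divide, leave the cell cycle, enlarge into hypertrophic cells that express type X collagen, and are replaced by bone. In the growth plate, where this sequence is best known, Indian hedgehog from cells about to become hypertrophic and parathyroid hormone-related protein keep younger chondrocytes dividing, and long exposure to GCs is known to slow growth. Within the cell cycle, genes for DNA synthesis are expressed around S phase, and genes for mitosis such as Mki67, Top2a and Cenpf peak in G2 and M.

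Many genes of S phase and of G2/M are known to be controlled from their promoters by E2F factors and by the DREAM complex, so 4 promoters are shown, those of the most abundant genes of each list, over all members, among genes that held a searched motif. Each runs from 250 bases before to 50 bases after the start of the gene in RefSeq on GRCm38.p6 and is written 5′ to 3′ on the strand of the gene. Capitals mark the letters of the CHR element (TTTGAA, or TTCAAA on the other strand), of the CCAAT box (CCAAT, or ATTGG on the other strand) and of the E2F site (TTTGGCGC, TTTGCCGC, TTTCGCGC or TTTCCCGC, searched on both strands), and none of these overlapped.
Pcna (sliding clamp of DNA polymerase, S phase list, chr2:132253131-132253430, minus strand): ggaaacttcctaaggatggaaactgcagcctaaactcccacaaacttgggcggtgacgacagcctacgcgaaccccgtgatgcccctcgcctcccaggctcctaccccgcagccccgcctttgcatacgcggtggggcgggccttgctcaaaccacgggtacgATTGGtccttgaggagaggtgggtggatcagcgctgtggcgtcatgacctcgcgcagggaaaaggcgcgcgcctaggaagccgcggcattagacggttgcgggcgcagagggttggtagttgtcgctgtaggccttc
Rrm1 (large subunit of ribonucleotide reductase, S phase list, chr7:102441445-102441744, plus strand): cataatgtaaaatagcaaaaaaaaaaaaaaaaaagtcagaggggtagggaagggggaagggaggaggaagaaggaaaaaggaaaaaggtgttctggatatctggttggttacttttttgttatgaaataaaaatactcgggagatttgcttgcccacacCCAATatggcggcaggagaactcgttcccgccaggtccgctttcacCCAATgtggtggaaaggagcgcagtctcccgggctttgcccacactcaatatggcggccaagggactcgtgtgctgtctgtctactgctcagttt
Hmgb2 (chromatin protein, G2/M list, chr8:57511593-57511892, plus strand): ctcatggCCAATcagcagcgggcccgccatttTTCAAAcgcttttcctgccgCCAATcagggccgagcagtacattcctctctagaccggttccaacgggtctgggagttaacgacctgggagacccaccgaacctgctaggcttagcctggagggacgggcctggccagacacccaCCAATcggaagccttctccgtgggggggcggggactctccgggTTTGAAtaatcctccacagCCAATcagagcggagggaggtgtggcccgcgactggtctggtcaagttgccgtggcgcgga
Cks2 (partner of cyclin-dependent kinases, G2/M list, chr13:51644982-51645281, plus strand): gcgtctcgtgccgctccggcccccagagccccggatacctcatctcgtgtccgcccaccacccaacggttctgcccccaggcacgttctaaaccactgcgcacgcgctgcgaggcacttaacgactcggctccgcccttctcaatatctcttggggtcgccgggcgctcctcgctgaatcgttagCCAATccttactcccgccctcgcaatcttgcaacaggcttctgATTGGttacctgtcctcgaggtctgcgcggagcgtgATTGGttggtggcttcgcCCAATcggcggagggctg
The promoter of Hmgb2 held 2 CHR matches and 4 CCAAT matches, that of Cks2 held 4 CCAAT matches, that of Rrm1 held 2 and that of Pcna held 1. Of the 53 genes of the G2/M list, 46 had a promoter in the table used, and 30 of these (65.2%) held a CHR match, 35 (76.1%) a CCAAT match and 2 (4.35%) an E2F match. Among all 32851 promoters of the same length, 17.9% held a CHR match, 37.4% a CCAAT match and 2.26% an E2F match. For the S phase list only 33 of 45 genes had a promoter in the table (73.3%), under the 80% asked for, so its shares are void and are not given. A match describes letters in a window and shows neither binding nor a cause.

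The libraries held 95852254 UMIs in control callus and 64388215 in GC callus, with a median of 4550 and 3532 UMIs per barcode kept. The control file lists every possible barcode, empty droplets included, and the GC file lists 7762 barcodes of at least 500 UMIs each, so free RNA could be measured in control callus alone. With 1 library per condition there were no replicates and no test between conditions was possible. Every interval below is a 95% interval for counting error only and does not cover the spread between cells, mice or libraries. Levels are in CPM, the UMIs of a gene over the summed UMIs of a group of cells, times 1000000. The sums were 3297889 UMIs in the control members and 592772 in the GC members. The callus libraries shared 12 barcode sequences, against 7.68 expected if barcodes were drawn at random, and none of them was a member in both.

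The label was read against the 12 chondrocyte markers, of which Col2a1 and Acan belong to the rule and the other 10 do not. All 10 had UMIs in the members of both libraries, and Sox9, the factor that drives the chondrocyte fate, was detected in 88 of 88 control members and 17 of 17 GC members. The 10 markers summed to 35312 CPM (35109 to 35515) in the control members and 35950 CPM (35469 to 36436) in the GC members. In droplets of 10 to 100 UMIs of control callus, which stand for free RNA, the same sum was 18489 CPM. In the barcodes with at least 3 UMIs of Mki67, Top2a and Cenpf but less than 1% Col2a1 and Acan, 140 in control and 136 in GC callus, it was 1701 and 706 CPM. Those barcodes were set apart from the members by the rule, so what follows is a description. Against them, the genes that stood highest in the control members were Ucma, Cnmd, Matn3, Col2a1 and Col9a1, and the same 5 genes stood highest in GC. Lowest were genes of other lineages. In control these were Igkc and Ighg2b of plasma cells, Prtn3 of promyelocytes, and Car2 and Hba-a1, both abundant in red cell precursors. In GC they were Ngp and Camp of neutrophil granules, Igkc and Jchain of plasma cells, and Hba-a1.

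Among cycling barcodes with less than 0.5% Col10a1, the cut on Col2a1 and Acan fell in a gap. Members held at least 2.33% (control) and 1.67% (GC) of their UMIs in these genes, and the highest of these barcodes outside the cut held 0.691% and 0.516%. With barcodes of any Col10a1 level taken in, the highest cycling barcodes under the cut held 0.939% and 0.852%. The control droplets of 10 to 100 UMIs held 2.63% Col2a1 and Acan, whereas the barcodes in none of the chondrocyte or cycling groups held 0.284% in control and 0.220% in GC callus. The cut on cycle genes did not fall in a gap. In control callus 9 members had exactly 3 such UMIs and 15 non-hypertrophic chondrocytes had 2, and in GC callus 1 member had 3 and 10 cells had 2. The same droplets held 51.9 CPM of Mki67, Top2a and Cenpf, against 6.10 CPM in the control chondrocytes left out for having fewer than 3 such UMIs. For Col10a1, the highest member held 0.440% in control and 0.238% in GC, and the lowest cycling chondrocyte above the cut held 0.520% and 0.516%.

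The rule genes describe the members and carry no test. Mki67, a protein that coats mitotic chromosomes (chr7:135689784-135716361, minus strand, GRCm38 with GENCODE M21, as for the positions of genes below), had 371 CPM (350.3 to 392) in control and 290.2 CPM (248 to 337) in GC members. Top2a, the topoisomerase that untangles DNA (chr11:98992943-99024189, minus strand), had 500.02 CPM (476 to 525) and 348 CPM (302 to 398). Cenpf, a kinetochore protein (chr1:189640606-189688086, minus strand), had 283 CPM (265 to 302) and 305 CPM (262 to 353). The levels of Mki67 and Top2a were the lower ones in GC and that of Cenpf the higher, and since the rule chose on these genes nothing is read from it. In a single member, the sum of the 3 genes ran from 3 through a median of 30 to 144 UMIs in control, and from 3 through 20 to 180 UMIs in GC. That highest GC member held 32.2% of all such UMIs of its library, and the highest control member 3.78%.

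Members were deeper than the chondrocytes they were drawn from. Their UMIs ran from 8163 through a median of 34486 to 168225 in control and from 16491 through 31790 to 76783 in GC, against medians of 22691 and 19312 in the 1160 and 674 non-hypertrophic chondrocytes with fewer than 3 cycle UMIs, called non-cycling or the other chondrocytes below. A rule that asks for a number of UMIs lets deep cells pass more readily, so shares are given below at several depths.

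Cycling cells made up a larger share of the non-hypertrophic chondrocytes in control than in GC callus. In control callus 88 of 1248 such cells were members, 7.05% (Clopper-Pearson interval 5.69 to 8.62). In GC callus 17 of 691 were members, 2.46% (1.44 to 3.91). The intervals did not overlap, but with 1 library per condition the difference between libraries and the difference between conditions cannot be told apart. Among cells of at least 10000 UMIs the shares were 8.03% (6.48 to 9.81) and 3.07% (1.80 to 4.88), and among cells of at least 20000 UMIs 10.6% (8.49 to 13.0) and 4.55% (2.57 to 7.39). When each cell of at least 2000 UMIs was thinned to that number and the rule applied again, the shares were 2.86% (34 of 1187) and 0.617% (4 of 648). With the barcodes of the highest doublet scores removed they were 6.50% (74 of 1139) and 1.28% (8 of 626). The control share was above the GC share in 12 of 12 alternative settings. These settings cut the same cells of the same pair of libraries in other ways, so their agreement is no separate support. A rule built on the whole S phase and G2/M lists in thinned cells gave nearly equal shares. They were 38.4% (35.6 to 41.3) and 37.5% (33.8 to 41.4), with overlapping intervals.

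In the neighbouring groups the intervals of the libraries overlapped at every depth. Among chondrocytes with at least 0.5% Col10a1, the hypertrophic marker, 22 of 1534 control cells (1.43%, 0.901 to 2.16) and 34 of 2556 GC cells (1.33%, 0.923 to 1.85) had at least 3 cycle UMIs. Among barcodes low in Col2a1 and Acan the shares were 3.22% (2.71 to 3.79) and 3.34% (2.81 to 3.94). Among cells of at least 10000 UMIs the Col10a1-high shares were 1.38% (0.819 to 2.17) in control and 2.16% (1.39 to 3.20) in GC, and at 20000 UMIs or more 1.76% (1.03 to 2.80) and 2.46% (1.38 to 4.02), so their order turned with depth. Those of the barcodes low in Col2a1 and Acan were 22.1% (18.2 to 26.4) and 16.8% (13.5 to 20.6) at the lower of these depths and 29.8% (23.0 to 37.3) and 21.6% (15.3 to 29.1) at the higher, and here too the order turned. The denominators themselves differed, since Col10a1-high cells made up 55.1% of control chondrocytes and 78.7% of GC chondrocytes. Members were 35.2% of all cycling barcodes of control callus (88 of 250) and 9.09% of those of GC callus (17 of 187).

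**Figure D1:**
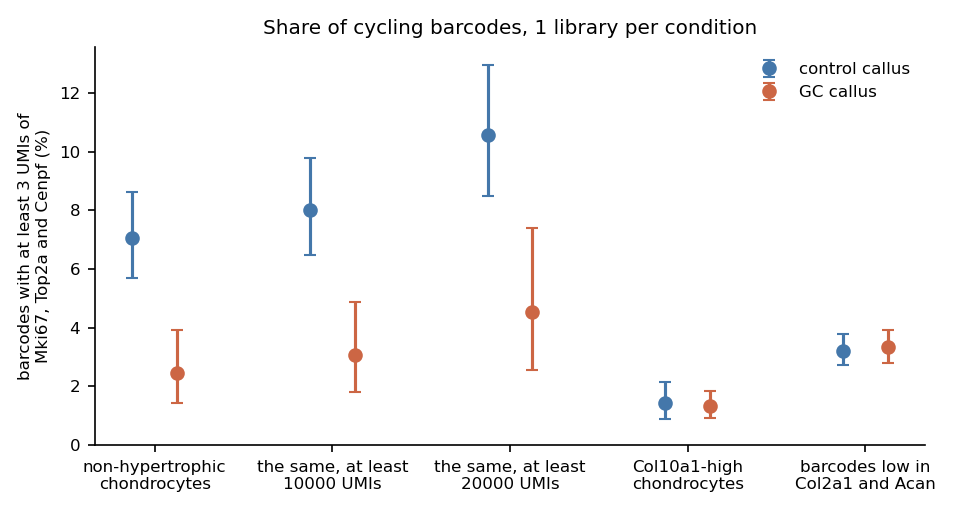
Share of cells with at least 3 UMIs of Mki67, Top2a and Cenpf (percent, vertical axis) in non-hypertrophic chondrocytes at 3 depths and in the other callus groups, for control and GC callus; bars on the points are exact 95% binomial intervals for counting error, with 1 library per condition. The non-hypertrophic chondrocytes stand at 7.05% in control and 2.46% in GC callus, while the intervals of the libraries overlap for the Col10a1-high chondrocytes and for the barcodes low in Col2a1 and Acan.

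Because the rule asked for UMIs of Mki67, Top2a and Cenpf, which peak in G2 and M, it favoured members late in the cycle, and the makeup below is a description of the cells it chose. Per member, the S phase list summed to a median of 1014 CPM (lowest 45.3, highest 5581) in control and 788 CPM (209 to 5002) in GC, and the G2/M list to 5218 CPM (617 to 20186) and 3555 CPM (403 to 21048). The ranges of the libraries overlapped almost fully. By the S phase list's share of the UMIs of both lists, 53 control members (60.2%, 49.2 to 70.5) lay under 20%, 19 (21.6%) between 20 and 40%, and 16 (18.2%, 10.8 to 27.8) at or above 40%. The GC members divided as 9 (52.9%, 27.8 to 77.0), 3 (17.6%) and 5 (29.4%, 10.3 to 56.0). These are ranges of a score and not cell types, and 11 control and 4 GC members lay within 3 percentage points of a cut. With 17 GC members the intervals of the libraries overlapped in each range, and a difference in this makeup was not tested.

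Single genes were read across the same ranges, and those of the S phase and G2/M lists had helped to set them. From the range under 20% to that at or above 40%, Pcna read 66.8, 191 and 288 CPM in control and 64.7, 108 and 186 CPM in GC. Ube2c, which loads ubiquitin for the destruction of mitotic proteins, read 476, 104 and 25.4 CPM in control and 335, 88.1 and 26.6 CPM in GC. Ccnd1, the cyclin of G1 and in neither list, read 144, 148 and 158 CPM in control and 112, 147 and 79.7 CPM in GC. Col2a1 and Acan, both in the rule, held 5.80%, 5.95% and 6.14% of the UMIs in control and 5.76%, 3.81% and 4.61% in GC, where the ranges hold 9, 3 and 5 members.

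**Figure D2:**
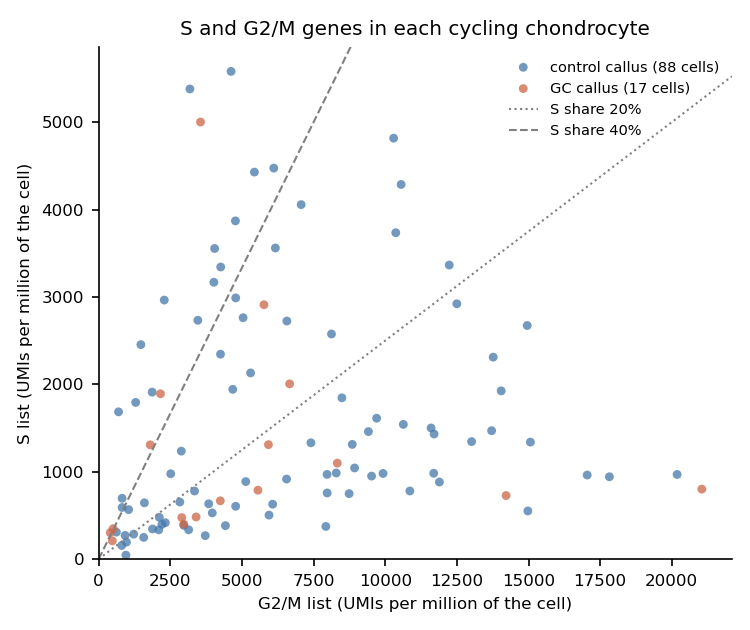
Each point is 1 cycling chondrocyte, with the G2/M list on the horizontal and the S phase list on the vertical axis (both linear axes, in CPM of the cell), for the 88 control and 17 GC members, and the lines mark an S phase share of 20% and 40%. The GC members lie between 209 and 5002 CPM of the S phase list and 403 and 21048 CPM of the G2/M list. The control members lie between 45.3 and 5581 CPM and between 617 and 20186 CPM, so some GC members fall outside the control range of the G2/M list.

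Against the chondrocytes with fewer cycle UMIs, which is the contrast the rule itself made, so that the values below describe the members and test nothing, 388 of 11528 genes (3.37%) were at least 2-fold higher in the control members and 35 (0.304%) at least 2-fold lower. Ratios for such counts had 5 CPM added to both sides, and a gene needed 50 UMIs over the groups compared. In GC callus 318 of 9892 genes (3.21%) were higher and 260 (2.63%) lower. By direction alone, 6361 genes were higher and 5167 lower in control members, and 4935 higher and 4957 lower in GC members. Counts of list genes by direction in this contrast stand beside these. Of 9867 genes with enough UMIs in both libraries, 166 were at least 2-fold higher and 16 at least 2-fold lower in both, and 0 went opposite ways. Of the 166, 75 were rule genes or members of the cell cycle, chromatin, histone and nucleotide lists. These lists do not hold every gene of the cell cycle, and Prc1, described below, is outside them. The 75 is therefore no count of cycle genes, and the share of list genes among all 9867 was not computed.

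All 51 genes of the G2/M list with enough UMIs were higher in control members (median log2 ratio 2.98, 50 at least 2-fold), as were all 37 in GC (3.09, 34 at least 2-fold), beside medians of 0.04 and -0.00 over all genes. All 38 S phase genes with enough UMIs were higher in control (1.70, 32 at least 2-fold) and all 22 in GC (1.02, 11 at least 2-fold). Outside the rule the highest genes in both libraries were Stmn1, a microtubule-destabilising protein (chr4:134468320-134473843, plus strand), and Prc1, which bundles microtubules of the mitotic spindle (chr7:80294450-80316259, plus strand). Stmn1 had 700.4 CPM in control and 430.2 CPM in GC members, against 13.2 and 4.74 CPM in the chondrocytes with fewer cycle UMIs. Prc1 had 291 and 221 CPM, against 2.69 and 2.01 CPM. Both were at low levels in these chondrocytes with fewer cycle UMIs in either library.

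Matrix genes of cartilage lay on either side of the other chondrocytes. The median of the 6 cartilage collagens was -0.21 in control and 0.18 in GC, and that of 19 proteoglycans and linkers -0.15 and -0.01. Of those 19, 2 were at least 2-fold lower and 0 at least 2-fold higher in control, beside 0.304% and 3.37% of all genes, and 2 were lower and 2 higher in GC, beside 2.63% and 3.21%. Genes of hypertrophy stood lower, with 14 of 15 lower in control (median -0.43) and 11 of 15 in GC (-0.25). Ibsp, a mineral-binding protein of hypertrophic cartilage and bone (chr5:104299171-104311469, plus strand), had 2969 CPM in control and 4304 CPM in GC members, against 6342 and 14369 CPM in the other chondrocytes. Ibsp, Bglap, Bglap2, Ifitm5 and Dmp1, all known from bone matrix or bone-forming cells, were among the 16 genes at least 2-fold lower in both libraries, as were the hemoglobin genes Hbb-bs, Hba-a1 and Hba-a2. The other 8 were Atf3, Pltp, Flnc, Cryab, Lmcd1, Ecm1, Cilp and F5. Of these, Ifitm5, Pltp, Flnc, Cryab, Lmcd1, Ecm1 and F5 are outside the lists and are named because the count is small, after their values were seen.

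The inhibitor Cdkn1c, known as p57 and as a brake on the cycle of maturing chondrocytes (chr7:143458339-143461050, minus strand), was lower in members of both libraries. It had 117 CPM (106 to 129.6) in control members against 326 CPM in the other chondrocytes, and 201 CPM (166 to 240.2) against 363 CPM in GC. Cdkn1a, the p53 target known as p21 (chr17:29090976-29100727, plus strand), was at 1737 against 1633 CPM in control and at 999 against 1287 CPM in GC.

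Among signals of the growth plate, 27 of 38 genes were lower in control members (median -0.21) and 28 of 34 in GC members (-0.31). At least 2-fold lower were 1 of the 38 in control, beside 0.304% of all genes, and 9 of the 34 in GC, beside 2.63%. Ihh, the hedgehog ligand of prehypertrophic cells (chr1:74945315-74951672, minus strand), had 25.8 CPM in control members against 42.9 CPM in the other chondrocytes, and 11.8 against 68.8 CPM in GC. Ptch1, the hedgehog receptor and itself a target of the pathway, was the other way round, at 573 against 384 CPM in control and 371 against 253 CPM in GC. Pth1r, the receptor of the parathyroid hormone-related ligand, had 434 against 667 CPM and 393 against 742 CPM. Each of these genes lay on the same side of the other chondrocytes in both libraries.

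**Figure D3:**
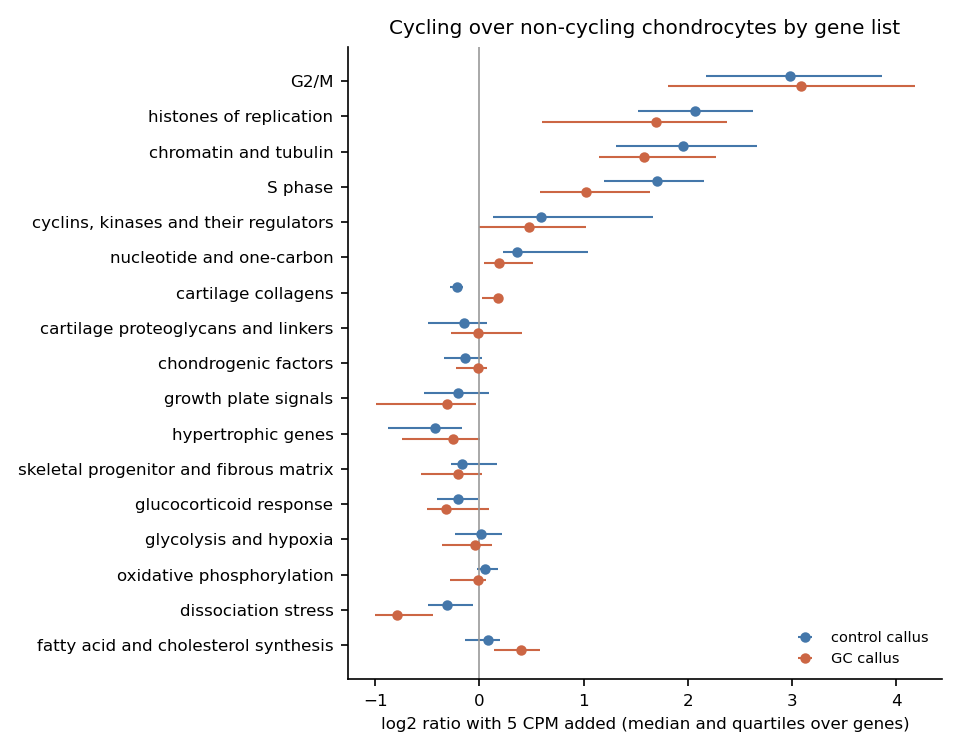
Median log2 ratio of members over chondrocytes with fewer cycle UMIs for each gene list (horizontal axis, 5 CPM added, bars from the first to the third quartile over genes), in control and GC callus, for genes with at least 50 UMIs and without rule genes. The G2/M list stands at 2.98 and 3.09, and the cartilage collagens near 0; the contrast is the one that chose the members, so it is a description.

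Between conditions, 92 of 6781 genes (1.36%) were at least 2-fold higher in GC than in control members and 219 (3.23%) at least 2-fold lower. These counts differed between settings. With the highest doublet scores removed, 130 genes were higher and 603 lower, of which 42 and 140 were among the 92 and the 219. After thinning the members to 2000 UMIs each, which left 588 genes with enough UMIs, 12 were higher and 44 lower, of which 5 and 12 were among them. In the chondrocytes with fewer cycle UMIs the figures were 30 of 11993 (0.25%) and 88 (0.734%), over far more cells and UMIs, so the counts cannot be set against each other. Both comparisons use the same pair of libraries. The median log2 ratio over all genes was -0.02 in members and 0.04 in the other chondrocytes. By direction alone, 3537 of 6781 genes were lower in GC members and 5278 of 11993 in the other chondrocytes. List counts near these shares show no direction particular to a list. Ratios quoted for single genes below are plain ratios of CPM with their counting intervals.

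The S phase list stood lower in GC members, with 29 of 35 genes lower and a median log2 ratio of -0.36, against 20 of 36 and -0.03 in the other chondrocytes. That median was -0.58 with the highest doublet scores removed and -0.12, over 9 genes, in members with at most 2 blood UMIs, and after thinning no gene of the list had enough UMIs. Of its 35 genes, 2 were at least 2-fold lower and 0 at least 2-fold higher, beside 3.23% and 1.36% of all genes. Ccne2, the cyclin E that opens S phase, had 32.7 CPM in control and 10.1 CPM in GC members, a ratio of 0.309 (0.111 to 0.695), with UMIs in 36 of 88 and 3 of 17 members. Pcna, whose promoter is printed above, had 133 CPM (121 to 146) and 103 CPM (78.7 to 132), a ratio of 0.771 (0.580 to 1.01). Mcm6, a subunit of the replicative helicase, had 59.1 and 60.7 CPM, and Rrm2, the small subunit of ribonucleotide reductase, 85.2 and 65.8 CPM. Pcna, Mcm6 and Rrm2 had ratios whose intervals spanned 1.

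The G2/M list had a median of -0.14, with 29 of 51 genes lower and 22 higher, beside 3537 lower and 3244 higher of all 6781 genes. Cdk1, the kinase that starts mitosis, had 212 CPM (197 to 228) in control and 113 CPM (87.6 to 144) in GC members, a ratio of 0.533 (0.409 to 0.686). Aurkb, a kinase of the chromosome passenger complex, had 57.9 and 20.2 CPM (0.350, 0.177 to 0.625). In contrast Hmmr, a spindle protein, had 89.5 and 128 CPM (1.43, 1.10 to 1.85), with 38.2% of its GC UMIs in 1 member. Cyclin B1 (Ccnb1), the partner of Cdk1, had 90.4 and 99.5 CPM, and Cks2 394 and 331 CPM. The list therefore held genes on either side with all members kept at full depth. Its median was -1.27 with the highest doublet scores removed, on 8 GC members, and -0.74 after thinning to 2000 UMIs. How many of its genes kept enough UMIs after thinning was not counted, so that value may rest on few. In members with at most 2 blood UMIs it was -0.39, and without members with over 10 endothelial UMIs -0.03.

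Among chromatin and tubulin genes 13 of 18 were lower in GC members (median -0.28). Tubb5, a beta tubulin, had 1012 CPM in control and 543 CPM in GC members (0.537, 0.477 to 0.602), and H2afz, a histone variant, 1452 and 1221 CPM (0.841, 0.777 to 0.910). Of the 12 replication histones with enough UMIs 9 were lower (median -0.51), 4 of them at least 2-fold, beside 3.23% of all genes. That median was -1.69 with the highest doublet scores removed, -2.95 after thinning and -0.13 in members with at most 2 blood UMIs, so its size differed between settings. Thinning kept every member and left 588 genes of any kind with enough UMIs. How many of them were replication histones was not counted, so the value after thinning may rest on very few genes. Hist1h2ap, an H2A histone (chr13:21833026-21833507, minus strand), had the lowest log2 ratio with 5 CPM added among genes of at least 50 CPM in 1 group, at 305 CPM (287 to 325) in control and 23.6 CPM (12.9 to 39.6) in GC members, a ratio of 0.0773 (0.0421 to 0.130), with UMIs in 56 of 88 and 3 of 17 members. Hist1h1b, the linker histone H1.5, had 175 and 135 CPM (0.771, 0.603 to 0.976). In the cycling barcodes low in Col2a1 and Acan, Hist1h2ap also read lower in GC, at 443 and 96.5 CPM. Replication histones are near-identical copies whose mRNAs mostly lack poly(A) tails, so counts of single copies are uncertain.

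Cell cycle regulators were divided, with 16 of 26 lower and a median of -0.11. Cdkn1a was lower in GC members, with a ratio of 0.575 (0.528 to 0.626), and so it was in the other chondrocytes (0.788, 0.774 to 0.802). Cdkn1c was higher, with a ratio of 1.71 (1.38 to 2.11) in members and 1.11 (1.07 to 1.15) in the others. Cdk6, a kinase of G1, had 219 and 125 CPM (0.570, 0.443 to 0.725). Myc, a growth-promoting factor, had 67.6 and 113 CPM (1.67, 1.25 to 2.21) and was detected in 68 of 88 and 14 of 17 members.

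**Figure D4:**
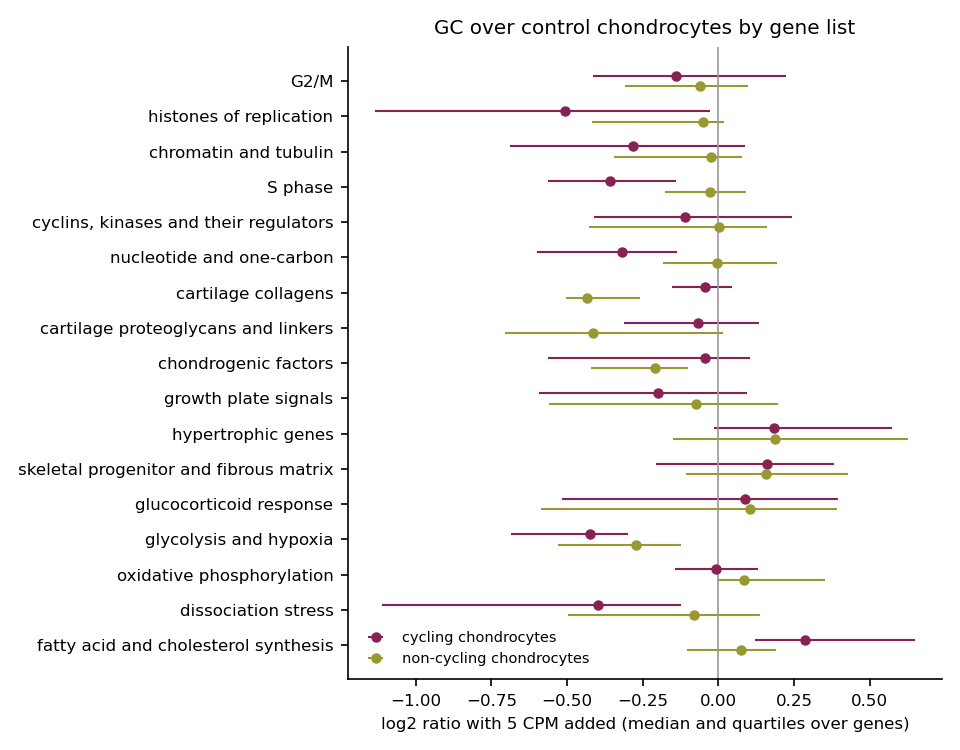
Median log2 ratio of GC over control for each gene list (horizontal axis, 5 CPM added, bars from the first to the third quartile over genes), in cycling and in non-cycling chondrocytes, 1 library per condition. The S phase list (-0.36), the replication histones (-0.51) and glycolysis and hypoxia (-0.42) lie to the left among the members, and the cartilage collagens stand at -0.05 in members and -0.44 in the other chondrocytes.

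The medians of the cartilage matrix lists lay nearer 0 in members than in the other chondrocytes, over genes that went both ways. The 6 cartilage collagens had a median of -0.05 in members (4 lower, and 0.10 with the highest doublet scores removed) and -0.44 in the others (6 lower), and 11 of 17 proteoglycans and linkers were lower in members (-0.07) against 13 of 19 in the others (-0.42). Of the proteoglycans and linkers, 2 were at least 2-fold higher in members and 0 at least 2-fold lower, beside 1.36% and 3.23% of all genes, against 0 higher and 1 lower in the others, beside 0.25% and 0.734%. Chad, described below, differed more in members. The difference between members and other chondrocytes was not tested. Col9a1, a collagen on the surface of type II fibrils, had 4035 CPM in control and 3833 CPM in GC members, and 4342 and 3316 CPM in the others. Cnmd, the vessel-repelling protein chondromodulin, had 1253 and 1196 CPM in members and 1155 and 630.2 CPM in the others. Matn3, a linker of the matrix, had 2604 and 2579 CPM in members and 2117 and 1587 CPM in the others. For these genes the libraries differed by less in members than in the other chondrocytes.

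Ucma is a small protein of early chondrocytes (chr2:4976122-4985748, plus strand), and its summed level differed in direction between members and the other chondrocytes. It had 709 CPM (680.2 to 738) in control and 865 CPM (792 to 944) in GC members, but 573 and 319 CPM in the other chondrocytes. Its median member was at 516 CPM in control and 387 CPM in GC, which is the reverse order, and 1 GC member held 27.3% of the GC UMIs. Chad, a cell-binding protein of cartilage, was 2-fold higher or more, with 547 CPM (522 to 573) in control and 1648 CPM (1546 to 1755) in GC members, a ratio of 3.01 (2.79 to 3.26), and UMIs in 86 of 88 and 17 of 17 members. Its ratio in the other chondrocytes was 1.46 (1.43 to 1.48).

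Chondrogenic factors showed no common direction in members, with 10 of 16 lower and a median of -0.04. Sox9 (chr11:112782224-112787760, plus strand) had 1489.7 CPM (1448 to 1532) in control and 1004 CPM (925 to 1088) in GC members, a ratio of 0.674 (0.618 to 0.734), and 1659 and 1234 CPM in the other chondrocytes. Sox5, its partner, had 157 and 101 CPM (0.646, 0.486 to 0.845), and Sox6, the other partner, 110.1 and 105 CPM (0.950, 0.714 to 1.25). Sox9 and Sox5 were lower in GC in members and in other chondrocytes alike, whereas the interval of Sox6 spanned 1.

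Of 30 growth plate signals 19 were lower in GC members (median -0.20), beside 3537 of all 6781 genes. Ihh had 25.8 CPM (20.6 to 31.9) in control and 11.8 CPM (4.75 to 24.3) in GC members, from UMIs in 38 of 88 and 4 of 17 cells, and 57.1% of its GC UMIs lay in 1 cell. Its ratio of 0.458 (0.179 to 0.986) lay opposite that of the other chondrocytes, 1.60 (1.47 to 1.75). Ptch1 was lower in both, with ratios of 0.648 (0.561 to 0.745) and 0.660 (0.635 to 0.685). Igf1, a growth factor for chondrocytes, had 51.9 and 16.9 CPM (0.325, 0.153 to 0.613). Fgfr3, the receptor that restrains chondrocyte division, had 297 and 267 CPM, and its interval spanned 1 (0.753 to 1.06).

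Hypertrophic genes were higher in 9 of 13 cases in GC members and lower in 4 (median 0.18, and 0.19 in the other chondrocytes). Col10a1, which the rule limits and which is not among the 13, went the other way in members. It had 1157 CPM in control and 542 CPM in GC members, and 1276 and 1309 CPM in the other chondrocytes. Ibsp had a ratio of 1.45 (1.39 to 1.51), against 2.27 (2.25 to 2.28) in the others. Alpl, the phosphatase of mineralization, had 546 and 992 CPM (1.82, 1.65 to 2.00). Col1a1, the collagen of bone and fibrous tissue, had 4089.9 CPM in control and 8732 CPM in GC members and 6901 and 14742 CPM in the others. Of the 6 osteoblast and osteocyte markers, Col1a1 made up nearly the whole sum of 4181 CPM in control and 8914 CPM in GC members, and 1 GC member held 34.3% of it. Single cells weighed on other genes too, since Mmp13, a collagenase, had 269.9 and 484 CPM with 98.6% of the GC UMIs in 1 member. The part of free RNA or of captured neighbouring cells in these levels was not tested.

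Genes of the glucocorticoid response had no common direction. Of 20 with enough UMIs 11 were higher and 9 lower in GC members (median 0.09), and of 22 in the other chondrocytes 12 were higher (0.10). Nr3c1, the glucocorticoid receptor, had 85.2 CPM in control and 86.0 CPM in GC members (1.01, 0.734 to 1.36). Fkbp5, a chaperone partner of the receptor and a classic target, had 24.6 CPM (19.5 to 30.5) and 43.9 CPM (28.7 to 64.3), a ratio of 1.79 (1.10 to 2.81), with UMIs in 44 of 88 and 12 of 17 members. Tsc22d3, the leucine zipper known as GILZ, had 89.8 and 101 CPM (1.13, 0.840 to 1.49). Per1, a clock gene with a receptor site, had 33.4 and 18.6 CPM (0.556, 0.270 to 1.03). The interval of Fkbp5 lay above 1, and those of Nr3c1, Tsc22d3 and Per1 spanned it.

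Of further genes of that list, Nfkbia and Ddit4 stood lower and Sgk1 and Mt1 higher. Nfkbia, the inhibitor of NF-κB, had 405 CPM in control and 128 CPM in GC members (0.316, 0.248 to 0.399). Ddit4, an inhibitor of mTORC1 that hypoxia and GCs are known to induce, had 64.6 and 21.9 CPM (0.340, 0.178 to 0.593). Sgk1, a kinase induced by GCs, was at 438 and 545 CPM (1.25, 1.10 to 1.41), and Mt1, a metallothionein, at 1056 and 1390.1 CPM (1.32, 1.22 to 1.42). In the other chondrocytes the ratios of Nfkbia (0.470), Ddit4 (0.345), Sgk1 (1.65) and Mt1 (1.24) lay on the same sides of 1.

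Glycolysis and hypoxia genes were lower in 20 of 23 cases in GC members (median -0.42, and -0.24 with the highest doublet scores removed) and in 21 of 23 in the other chondrocytes (-0.27). Slc2a1, the glucose transporter, had 398 CPM (376 to 419.6) in control and 206 CPM (171 to 246) in GC members (0.518, 0.426 to 0.624). Gapdh had 1121 and 722 CPM (0.644, 0.581 to 0.712), and 954 and 938 CPM in the other chondrocytes. Egln3, an oxygen sensor that hypoxia induces, had 32.1 CPM in control members and 1.69 CPM in GC, a single UMI, and a ratio of 0.0525 (0.00132 to 0.299). By contrast the oxidative phosphorylation list had 8 of 16 genes on each side (-0.01), and fatty acid oxidation 6 of 10 higher (0.07). Of the lists not described further, 10 of 12 nucleotide genes (-0.32) and 9 of 12 p53 and DNA damage genes (-0.26) were lower in GC members, and 10 of 16 genes of the fibrous matrix (0.16) and 17 of 25 of the secretory pathway (0.08) higher.

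Genes of cholesterol and fatty acid synthesis were higher in 13 of 16 cases in GC members (median 0.29), and in 11 of 18 in the other chondrocytes (0.08). Idi1, an isomerase of sterol synthesis, had 64.0 CPM (55.6 to 73.2) in control and 142 CPM (113 to 175) in GC members, a ratio of 2.21 (1.70 to 2.87). Hmgcs1, the synthase before the rate-limiting step, had 160.1 and 251 CPM (1.57, 1.30 to 1.89). Insig1, a sterol sensor, had 136 and 202 CPM (1.49, 1.21 to 1.83). The intervals of these 3 genes lay above 1 in members.

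Immediate early genes, which cell dissociation is known to induce, were lower in 12 of 14 cases in GC members (median -0.40), 5 of them at least 2-fold beside 3.23% of all genes, and in 10 of 16 in the other chondrocytes (-0.08). Egr1 had 1062 CPM in control and 379.6 CPM in GC members (0.357, 0.311 to 0.409), and 1059 and 765 CPM in the others. Ier2 had 327 and 84.3 CPM (0.258, 0.190 to 0.343). Ier3, a gene of the same kind (chr17:35821684-35822923, plus strand), was among the 5 lowest genes in members, with 1077 CPM (1042 to 1113) in control and 169 CPM (137 to 205) in GC, and in the other chondrocytes it read 919 and 162 CPM. A difference in handling between the libraries and one between conditions cannot be told apart here.

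The remaining ends of the comparison rested partly on few cells. By the log2 ratio with 5 CPM added, among genes of at least 50 CPM in 1 group, the 5 highest were Col4a1, Col4a2, Dqx1, mt-Atp8 and Serpina3n, and the 5 lowest were Hist1h2ap, 1520401A03Rik, Krt16, Ier3 and Pgp. Col4a1, a collagen of vessel walls, had 4.25 CPM in control and 154 CPM in GC members, but came from 3 GC members, and 47 of its 91 GC UMIs lay in 1 member that also held 49 UMIs of the endothelial markers. Dqx1 came from 2 GC members and Serpina3n, a serine protease inhibitor induced by GCs, from 9 of 17. The mitochondrial gene mt-Atp8 had UMIs in 17 of 17 GC members, at 51.9 and 309 CPM, and it was also the highest gene in the other chondrocytes, at 58.2 and 246 CPM. The transcript 1520401A03Rik likewise stood low in both, with 140.4 and 10.1 CPM in members and 97.2 and 6.61 CPM in the others.

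Markers of blood, immune and endothelial cells had UMIs in members. The 6 blood cell markers summed to 94.9 CPM in control and 54.0 CPM in GC members, led by Tyrobp and by Ptprc, with Coro1a at 0 in GC. The 6 neutrophil markers summed to 422 and 159 CPM, led by S100a8 and S100a9, and 65.8% of the control sum and 70.2% of the GC sum lay in 1 member each. The 6 macrophage markers summed to 26.1 and 13.5 CPM, with C1qa, C1qb and Adgre1 at 0 in GC. The 4 endothelial markers summed to 8.19 CPM in control, where Emcn and Kdr were at 0, and to 152 CPM in GC, where 2 members held 49 and 34 of 90 UMIs. Blood and neutrophil markers were thus higher in control members and endothelial markers in GC members. Most of the neutrophil sum in either library and of the endothelial sum in GC lay in 1 or 2 members. In the other chondrocytes of control and GC callus, blood markers summed to 114 and 62.1 CPM and neutrophil markers to 278 and 131 CPM, in the same order. Macrophage markers summed there to 46.0 and 55.5 CPM and endothelial markers to 11.1 and 6.04 CPM, each in the order opposite to that in members.

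For the remaining lists, the 5 erythroid markers summed to 133 and 57.4 CPM, led by Hbb-bs, and 57.5% of the control sum lay in 1 member. The 5 osteoclast markers summed to 90.4 and 86.0 CPM, most of it Ctsk, with Ocstamp at 0 in both. The 5 B cell markers summed to 107 and 142 CPM, nearly all of it Ebf1, which stromal cells also express, with Ms4a1 at 0 in both. The 5 T and NK cell markers summed to 4.85 and 6.75 CPM, and the 6 fibroblast markers to 2330 and 2326 CPM, led by Dcn. The fibroblast sum was 550 and 538 CPM in the cycling barcodes low in Col2a1 and Acan, 2468 and 2663 CPM in the other chondrocytes and 1301 CPM in the control droplets of 10 to 100 UMIs.

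Members had high doublet scores. Removing the 407 and 428 barcodes with the highest scores took 14 of 88 control and 9 of 17 GC members. Of the other chondrocytes it took 95 of 1160 in control and 56 of 674 in GC callus. The median score was 0.54 and 0.64 in members against 0.18 and 0.22 over all barcodes kept. Over 12 UMIs of 9 blood cell genes were found in 12 of 88 control members (13.6%, 7.25 to 22.6) and 3 of 17 GC members (17.6%, 3.80 to 43.4), against 7.67% and 5.19% of the other chondrocytes. With the high scores removed, the median log2 ratio of GC over control changed from -0.36 to -0.58 for the S phase list, from -0.14 to -1.27 for the G2/M list, from -0.51 to -1.69 for the replication histones, from -0.42 to -0.24 for glycolysis and hypoxia, and from -0.05 to 0.10 for the cartilage collagens, on 8 GC members. Whether a member was 1 cell or a pair was not tested beyond these scores.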

How the data were processed

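Both callus libraries were analysed as the authors deposited them, as UMI counts per gene and barcode without normalization. The headers of both callus matrices name Cell Ranger 4, whereas the submitters' processing notes name Cell Ranger 5.0.1, Seurat 3.2.0 and the mm10 build. The labels name the 10x kit v2, but the control file lists 6794880 barcodes, the length of the v3 list, and all 7762 GC barcodes are in it. Members, gene lists and settings were chosen with earlier results of these data known. UMIs were summed over the cells of a group and given as CPM with exact Poisson intervals. Shares have Clopper-Pearson intervals and ratios exact conditional intervals of a pair of Poisson counts, all at 95%. A gene was called past 2-fold on log2 ratios with 5 CPM added, given 50 UMIs over both groups. With 1 library per condition no p-value was computed, and with 2 libraries an exact paired test could not go below p = 0.5. Doublet scores came from simulated pairs (2000 variable genes, 30 components, 50 neighbours, 0.8% removed per 1000 barcodes). The code was tested on simulated data. The 20 gene lists and 13 marker lists held 492 genes found in the files, and 2 listed names were not found. Any list gene may be named, as may the 5 highest and 5 lowest ratios of a comparison among genes of at least 50 CPM in 1 group. A gene that met this rule is not reported here. For promoters, the rule took the 2 most abundant genes of each list that held a searched motif. Alternatives covered the rule's cuts, depth, doublets, blood UMIs, the pseudocount, the UMI minimum and scaling. Those with 10000 UMIs, with 12 blood UMIs and without endothelial members were chosen after seeing the data. Scripts ran in Python 3.11.15 with scipy 1.17.1, numpy 2.4.6, scikit-learn 1.9.0, pandas 2.3.3 and matplotlib 3.10.9.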

Additional observations from a re-analysis of the deposited data

Results flagged for a closer look

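For 16 genes reported here, from the lists or among the highest and lowest of a comparison, the counting intervals of the GC-to-control ratio lay on opposite sides of 1 in cycling chondrocytes and in the chondrocytes with fewer cycle UMIs. They were found by a search of all list genes and named genes with enough UMIs in both comparisons. How many genes that was, and the share over all genes, was not counted, so nothing is read from the number 16. Each ratio rests on 1 library per condition, both use the same pair of libraries, and the difference between them was not tested.

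Among cartilage and growth plate genes, the ratio in members was 1.22 for Ucma (0.558 in the other chondrocytes), 1.18 for Col11a1 (0.862), 0.458 for Ihh (1.60) and 2.72 for Igf2 (0.463). For Ucma, 27.3% of the GC UMIs lay in 1 member, and the median member had 516 CPM in control and 387 CPM in GC, the reverse of the summed level. Igf2 had UMIs in 15 of 88 control and 5 of 17 GC members. In GC, 1 member held 57.1% of the Ihh UMIs and 1 member 42.9% of the Igf2 UMIs. Among genes of other matrix and mesenchymal kinds the ratio in members was 1.12 for Sparc (0.949), 0.464 for Pdgfra (1.13), 1.93 for Fxyd3 (0.721), 0.661 for F13a1 (1.72) and 1.79 for Mmp13 (0.777). Of the GC UMIs of Mmp13, 98.6% lay in 1 of the 5 GC members that held any, and 1 member held 50% of those of F13a1, 42.9% of those of Pdgfra and 20.9% of those of Fxyd3. For the genes below, save Lyz2 and Pecam1, the largest share of 1 GC member ran from 12.6% for Atp5g1 to 28.2% for Bnip3.

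Among genes of metabolism, folding and the cycle the ratio in members was 0.722 for Bnip3 (1.18), 1.15 for Hk2 (0.80), 0.707 for Atp5g1 (1.07), 1.16 for Hsp90b1 (0.97) and 0.725 for Usp1 (1.27). For the remaining genes it was 0.0959 for Lyz2 (1.23), which had 1 UMI in GC members, and 5.79 for Pecam1 (0.672). Of the GC UMIs of Pecam1, an endothelial marker, 57.7% lay in 1 member.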

How the results depend on the processing

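The share of cycling cells, 7.05% in control and 2.46% in GC callus, was 2.86% and 0.617% after thinning to 2000 UMIs and 38.4% and 37.5% by the S phase and G2/M lists in thinned cells, and the GC share was 1.28% with doublets removed. The other settings, 10 for control and 9 for GC, moved the share by less than its interval. The 92 genes at least 2-fold higher in GC members became 27 with a pseudocount of 20 CPM, 163 with at least 20 UMIs, 19 with at least 200 UMIs and 12 after thinning. The 219 lower genes became 355 with a pseudocount of 1 CPM, 57 with 20 CPM, 350 with at least 20 UMIs, 68 with at least 200, 44 after thinning, 108 in members with at most 2 blood UMIs and 603 with doublets removed. The 166 genes higher in members of both libraries became 95 with 20 CPM, 64 with at least 200 UMIs, 29 after thinning and 80 with doublets removed. The 16 lower genes became 46 with 1 CPM, 4 with 20 CPM, 41 after thinning, 58 with at most 2 blood UMIs and 25 with at most 12. The cause of these differences was not tested, beyond the fewer genes or cells that a minimum or a removal leaves.

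With 1 library per condition, no library can be left out, and counting intervals understate the error. No paired analysis was possible because each group is 1 library and no result comes from a test. With 17 GC members and 592772 UMIs, low genes rest on few molecules, and 1 member can carry a gene. Free RNA could not be measured in GC callus. The median of the S phase list in GC over control members ran from -0.58 (doublets removed) to -0.12 (at most 2 blood UMIs, 9 genes) and that of the G2/M list from -1.27 to -0.03, so both kept their sign in every setting that gave a value. After thinning no S phase gene had enough UMIs. The cartilage collagens ran from -0.15 to 0.10.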

Other observations

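The chondrocytes above the Col10a1 cut that also held at least 3 UMIs of Mki67, Top2a and Cenpf, 22 in control and 34 in GC callus, are outside the members and were read beside them as a description. The 3 genes summed to 483 CPM in control and 331 CPM in GC cells of this kind, against 1154 and 943 CPM in members. Ube2c had 206 CPM in control and 25.2 CPM in GC, Cdk1 104 and 19.3 CPM, and Stmn1 306 and 71.2 CPM, and in members Ube2c had 309.6 and 214 CPM. Pcna ran the other way, at 66.4 CPM in control and 119 CPM in GC. The inhibitor Cdkn1c had 742 and 197 CPM in these cells and 117 and 201 CPM in members. Few cells carried Ube2c and Cdk1. Ube2c had UMIs in 10 of 22 control and 7 of 34 GC cells and Cdk1 in 9 and 7, and 1 control cell held 33 of the 77 Cdk1 UMIs. The cells of GC callus also held 1012 CPM of 9 blood cell genes, against 286 CPM in control and 197 CPM in GC members, and the part of other cells in these levels was not tested.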
